A study of Papio anubis with 28 samples.

Results

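In all, 9 genes of sugar metabolism and of the response to low oxygen were followed in bladder tissue of olive baboons (Papio anubis): SLC2A1, HK2, ALDOA, PGK1, LDHA, KHK, FBP1, PCK1 and CA9. They were found by their symbols in a deposited table of read counts with 27533 genes, where each of the 9 has a single row, and all 9 passed the filter on low counts that left 17177 genes for testing. Gene expression was measured by RNA sequencing of poly-A-selected RNA in 28 libraries from 14 wild-type animals, each of which gave native bladder and the tissue grafted into that bladder. The ileum grafts (5 libraries, Entero arm) were bowel segments joined to the bladder, with native bladder of the same 5 animals beside them. The SIS regenerated tissues (5 libraries) and the PRS regenerated tissues (4 libraries) had formed on scaffolds seeded with bone marrow cells, namely mesenchymal stromal cells and CD34+ haematopoietic stem and progenitor cells, again with native bladder of the same 5 and 4 animals. The sources used here do not give what PRS stands for, the ages, the time after surgery or the sampled layer of the wall. The animal codes in the labels carry the letter F or M, and each arm holds both. There was no ungrafted ileum and no unseeded scaffold among the samples, so bowel as such and bowel after grafting cannot be told apart.

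Glucose enters cells through transporters such as SLC2A1 (GLUT1), is trapped by hexokinases such as HK2, and is broken down by glycolytic enzymes among which are ALDOA (aldolase A) and PGK1 (phosphoglycerate kinase). LDHA, a lactate dehydrogenase subunit, turns the end product of glycolysis into lactate. KHK (ketohexokinase) starts the breakdown of fructose, while FBP1 (fructose bisphosphatase) and PCK1 (cytosolic phosphoenolpyruvate carboxykinase) run the steps that bypass glycolysis during glucose synthesis, and these 3 enzymes are made in the absorptive cells of the small intestine. CA9 (carbonic anhydrase IX), SLC2A1, HK2, PGK1 and LDHA are known targets of the hypoxia-inducible factors, and CA9 is also made by epithelium of the digestive tract.

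Library totals ran from 20975648 to 35669026 counts. The unit of a level is the CPM, a gene's share of its library's counts after scaling by the trimmed mean of M values (TMM), and fold changes come from edgeR's quasi-likelihood test with p-values adjusted over all genes tested, with 0.05 as the threshold. The labelled tissues were checked against marker lists. A list of 12 genes of absorptive gut epithelium summed to 2460 to 26700 CPM in the ileum grafts, against 17.4 to 44.7 CPM in native bladder of the same animals, and to no more than 11.6 CPM in any regenerated tissue. The 10 urothelial markers summed to 500 to 2410 CPM in the ileum grafts, against 2100 to 18500 CPM in native bladder of the Entero arm, so the sums overlapped. Of the 10, 9 were lower and 1, KRT20, a keratin that the gut makes too, was higher in the ileum grafts, where it made up 95.6% of the mean sum. UPK1A, a protein of the urothelial surface, lay between 0 and 6.09 CPM in the ileum grafts, against 153 to 2260 CPM in native bladder of the Entero arm. Transcripts of the 13 mitochondrially encoded genes took 19.8% ± 8.03 (SD, n = 5) of all counts in ileum grafts, against 8.38% ± 1.38 (SD, n = 5) in native bladder of those animals. In whole tissue, fewer cells of a type and less RNA per cell cannot be told apart.

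The ileum grafts differed from native bladder in the genes of fructose use and glucose synthesis, in CA9, LDHA and HK2, and in SLC2A1 in the opposite direction. KHK was 154-fold higher, PCK1 340-fold, CA9 16.1-fold and FBP1 13.5-fold, while HK2 was 6.97-fold and LDHA 3.37-fold higher and SLC2A1 was 4.47-fold lower. ALDOA and PGK1, from the common trunk of glycolysis, did not pass the test. Of the 9 genes, 7 passed, beside 15.0% of all genes tested. Of these 6 were higher in the graft, beside 7.72% of all genes, and 1 was lower, beside 7.33%. The median log2 fold change of the 9 was 2.80, beside -0.03 over all genes. For 4 genes, KHK, FBP1, PCK1 and CA9, the 5 ileum grafts did not overlap with the 5 native bladders, which was so for 11.4% of all genes.

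**Figure D1:**
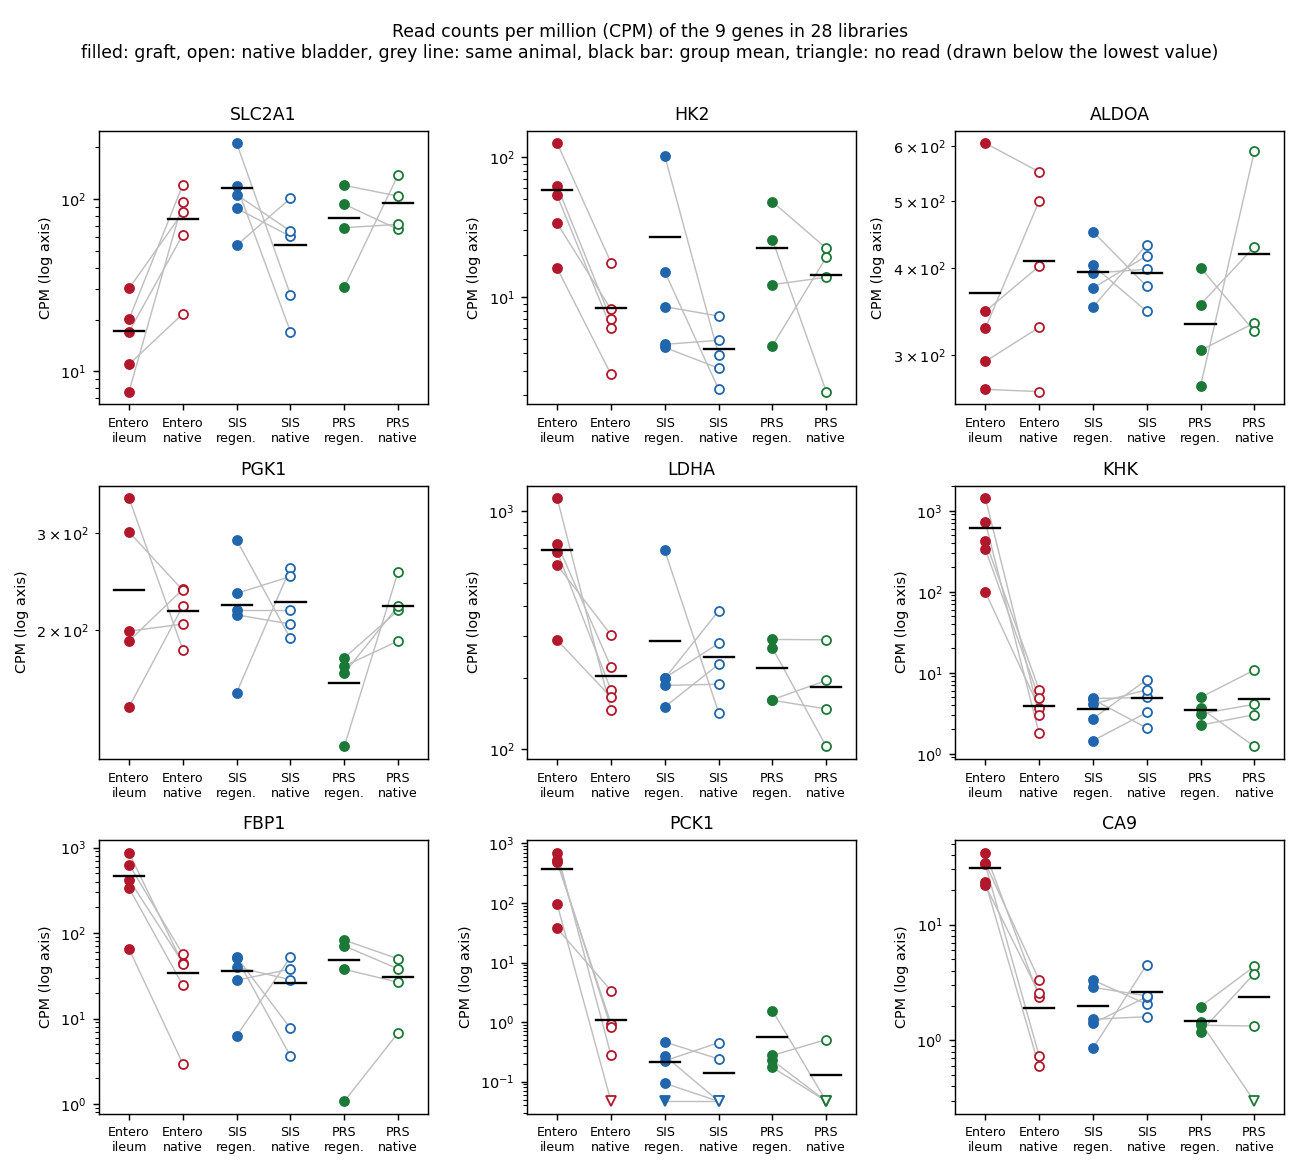
CPM (log axis) of the 9 genes in all 28 libraries, with grafts filled, native bladders open, grey lines joining tissues of 1 animal, black bars at group means and triangles for libraries with no read. KHK, FBP1, PCK1 and CA9 in the ileum grafts lie above every native bladder of that arm, and SLC2A1 is lower in the graft in 5 of 5 Entero animals.

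KHK had 424, 336, 723, 99.9 and 1440 CPM in the ileum grafts of Entero animals 1 to 5, against 6.18, 4.88, 1.78, 3.69 and 3.05 CPM in their native bladders. The lowest graft was still many times the highest native bladder, and within animals the ratio of graft to native ran from 27.1 to 472. KHK differed by 7.27 on the log2 scale (SE 0.71, adjusted p = 2.23e-07). Without ileum graft 5 it was 6.66 and still called. On a scale per transcript length (TPM, which divides counts by transcript length), KHK was the highest of the 9 genes in the ileum grafts. It stood at 419 ± 283 TPM there (SD, n = 5), against 4.67 ± 2.48 TPM (SD, n = 5) in their native bladders. TPM carry no TMM scaling, so a difference between tissues in TPM can depart from that in CPM. For PGK1 the ileum mean was above the native mean of the Entero arm in CPM and below it in TPM.

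PCK1 had 486, 95.0, 697, 37.4 and 520 CPM in the ileum grafts, against 0.940, 0, 0.278, 3.38 and 0.812 CPM in native bladders 1 to 5. PCK1 was nearly absent from the bladder wall, and its native value in animal 4 was the highest. In that library the 8 adipocyte markers summed to 1230 CPM, against 111 to 150 CPM in the other 4 native bladders of the arm. The absorptive gut markers were also highest there among these native bladders, at 44.7 CPM in sum, against 17.4 to 24.6 CPM in the other 4. The part of either marker set in the PCK1 value was not tested. PCK1 differed by 8.41 on the log2 scale (SE 1.33, adjusted p = 7.78e-05), a value that was 9.51 without native bladder 4 and 9.13 with the animal as a block. FBP1, the other enzyme of glucose synthesis, had 422, 336, 633, 65.2 and 869 CPM in the ileum grafts, against 45.0, 24.5, 56.5, 2.96 and 43.5 CPM in the native bladders. Its ratio of graft to native was between 9.38 and 22.0 in the 5 animals, and the animal with the lowest graft also had the lowest native value. FBP1 had a log2 difference of 3.75 (SE 0.92, adjusted p = 0.00583).

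Within the ileum grafts KHK and FBP1 were lowest in ileum graft 4 and highest in ileum graft 5, the libraries in which the absorptive gut markers also had their lowest sum (2460 CPM) and their highest (26700 CPM). PCK1 was lowest in ileum graft 4 too and highest in ileum graft 3. The part of the share of gut epithelium in these levels was not tested.

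CA9 was more even, with 34.1, 41.8, 23.3, 21.9 and 33.1 CPM in the ileum grafts, against 3.32, 2.38, 0.595, 2.54 and 0.735 CPM in the native bladders. The groups did not overlap, and ileum graft 4, the poorest in gut markers, was the lowest graft here too. For CA9 the log2 difference was 4.01 (SE 0.76, adjusted p = 0.000589). HK2 had 62.1, 126, 16.1, 53.4 and 33.7 CPM in the ileum grafts, against 6.94, 17.7, 2.82, 6.07 and 8.20 CPM in the native bladders. The ranges touched across animals, since the lowest graft lay below the highest native bladder, but within each of the 5 animals the graft was higher, by 4.12 to 8.95 times. For HK2 the log2 difference was 2.80 (SE 0.82, adjusted p = 0.0202). It was no longer called without native bladder 1 (adjusted p = 0.0515), without native bladder 3 (adjusted p = 0.0557) or without ileum graft 2 (2.31, adjusted p = 0.0660).

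LDHA had 678, 733, 288, 596 and 1140 CPM in the ileum grafts, against 178, 222, 166, 303 and 147 CPM in the native bladders. Again 1 graft fell within the native range, and the graft was higher in 5 of 5 animals, by 1.73 to 7.71 times. For LDHA the log2 difference was 1.75 (SE 0.41, adjusted p = 0.00413). SLC2A1 went the other way, with 30.3, 17.0, 20.1, 11.0 and 7.64 CPM in the ileum grafts, against 83.8, 62.1, 121, 21.6 and 96.3 CPM in the native bladders. Its graft value was lower in 5 of 5 animals, by a log2 difference of -2.16 (SE 0.50, adjusted p = 0.00351). The 2 tissues overlapped only through native bladder 4, whose urothelial markers summed to 2100 CPM, the lowest sum among the native bladders of the arm.

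ALDOA averaged 369 ± 136 CPM in ileum grafts and 410 ± 118 CPM in native bladder (SD, n = 5 each), with a log2 fold change of -0.15 and a 95% interval from -0.64 to 0.33. PGK1 averaged 237 ± 83.9 CPM in ileum grafts and 217 ± 22.5 CPM in native bladder (SD, n = 5 each), with a log2 fold change of 0.13 and an interval from -0.31 to 0.56. Both enzymes are steps of glycolysis and were among the most abundant of the 9 genes per transcript length in native bladder of the Entero arm, at 390 ± 73.2 TPM for ALDOA and 262 ± 32.2 TPM for PGK1 (SD, n = 5 each). In human, ALDOA, PGK1 and LDHA have processed copies elsewhere in the genome, so reads may be shared and their counts carry that uncertainty.

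The rank of the 9 genes per transcript length was different in the 2 tissues of the Entero arm. In ileum grafts KHK was followed by ALDOA (239 ± 81.3 TPM), LDHA (215 ± 75.1 TPM), PGK1 (191 ± 64.5 TPM), FBP1 (163 ± 86.4 TPM) and PCK1 (162 ± 124 TPM), neighbours that did not differ beyond their spread (SD, n = 5 each). CA9, SLC2A1 and HK2 came last, at 19.9 ± 6.60, 11.6 ± 6.19 and 9.34 ± 7.52 TPM. In native bladder ALDOA and PGK1 were followed by LDHA at 95.0 ± 21.6 TPM, SLC2A1 at 77.4 ± 37.1 TPM and FBP1 at 20.2 ± 11.9 TPM. KHK, HK2, CA9 and PCK1 all averaged below 5 TPM there.

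**Figure D2:**
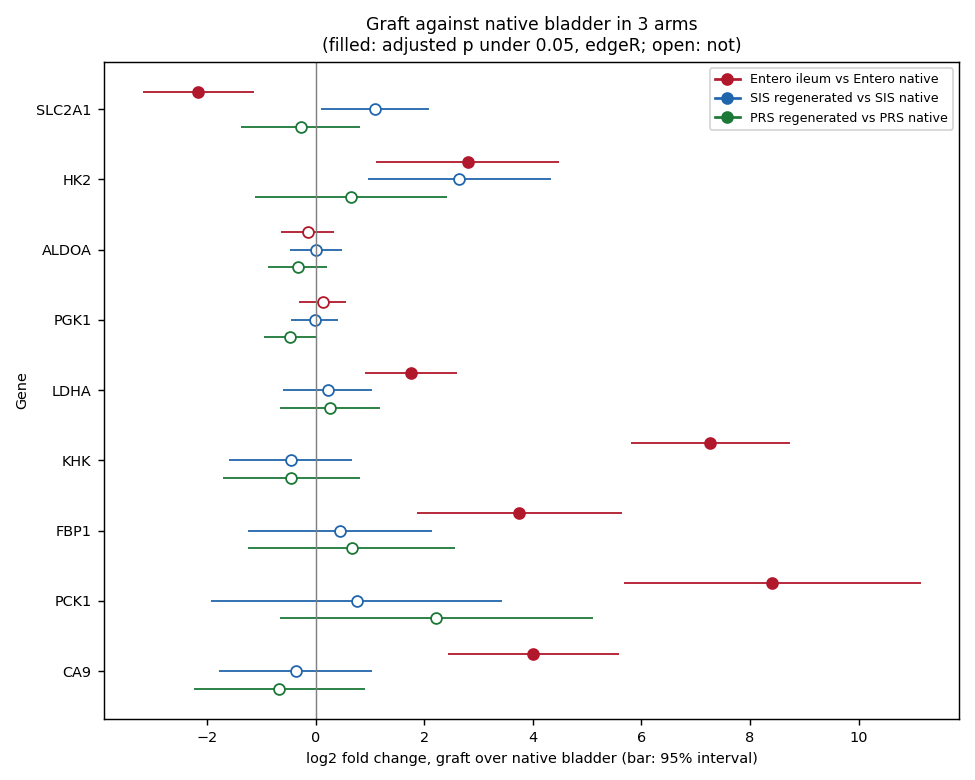
Log2 fold change of graft over native bladder with its 95% interval for the 9 genes in the Entero, SIS and PRS arms, filled where the adjusted p of edgeR's quasi-likelihood test is under 0.05. The filled points are 7 genes of the Entero arm, from -2.16 for SLC2A1 to 8.41 for PCK1, and no point of the SIS or PRS arm is filled.

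Lists of the wider pathways were read in the same fit, with 75 of 88 listed genes tested and 12 with no row under the listed symbol not analysed here. GAPDH, with 3 rows under its symbol, was left out too. Each list's count is read beside the 7.72% of all genes that were higher and the 7.33% that were lower in the ileum grafts. Of the fructose list 6 of 6 tested genes passed, all higher in the ileum grafts (7.72% of all genes were), with a median log2 fold change of 5.83. SLC2A5, the fructose transporter GLUT5, had a log2 fold change of 5.23, SORD, which makes fructose from sorbitol, 3.62, and GLYCTK, a kinase late in fructose breakdown, 1.95.

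Of 8 tested genes of glucose synthesis, 6 rose, beside 7.72% of all genes, and none fell, beside 7.33%, with a median log2 fold change of 2.83. Beside PCK1 and FBP1 they were PCK2, the mitochondrial sister of PCK1 (3.21), PC, pyruvate carboxylase (2.45), G6PC, which releases free glucose (8.08), and SLC37A4, the transporter that feeds it (1.97). G6PC averaged 23.7 ± 23.1 CPM in the ileum grafts, with no read in 1 of them, and 0.0855 ± 0.102 CPM in native bladder (SD, n = 5 each).

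In the glycolysis list most tested genes were not called. TPI1, PGAM1 and ENO1 had no row under their symbols and GAPDH was left out, so these enzymes of the list are not covered. Of 18 tested genes 4 rose, beside 7.72% of all genes, 1 fell, beside 7.33%, and 13 did not pass, with a median log2 fold change of 0.36. Among those that rose were HK2, HKDC1 and PGAM2, the last of which is the muscle form of phosphoglycerate mutase (2.61). HKDC1, a hexokinase-like gene, averaged 311 ± 190 CPM in ileum grafts and 0.521 ± 0.770 CPM in native bladder (SD, n = 5 each). HK1, the general hexokinase, fell by 0.89 on the log2 scale (adjusted p = 0.0218), and this call was lost without ileum graft 2 (adjusted p = 0.0506) or ileum graft 5 (adjusted p = 0.0714). HK1 averaged 67.0 ± 27.6 CPM in ileum grafts and 124 ± 13.5 CPM in native bladder (SD, n = 5 each). Per transcript length, without TMM scaling, it was at 25.1 ± 10.4 TPM in ileum grafts and at 68.0 ± 6.88 TPM in native bladder. In native bladder HK2 was at 1.97 ± 1.51 TPM (SD, n = 5 each).

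Of 9 tested glucose transporters and related genes, 2 rose, beside 7.72% of all genes, and 3 fell, beside 7.33%. SLC5A1, the sodium-coupled glucose transporter of the gut surface, had a log2 fold change of 9.02, and SLC2A2 (GLUT2) one of 9.60. SLC2A12 fell by 5.49, SLC2A8 fell by 1.35 and SLC2A1 by the value above. The SLC2A8 call was lost without native bladder 3 (-1.02, adjusted p = 0.0742). Of 8 genes of lactate handling LDHA rose and SLC16A8, a lactate transporter, fell by 5.69 on the log2 scale. LDHB, also of that list, had no row under its symbol.

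The hypoxia list did not move 1 way. Of the 9 genes it holds CA9 alone, since SLC2A1, HK2, PGK1 and LDHA were counted in the other lists. Of 27 tested genes 4 rose (CA9, PFKFB4, EGLN1 and MXI1), beside 7.72% of all genes, and 4 fell (ANGPTL4, HIF1AN, P4HA1 and BNIP3L), beside 7.33%. MXI1, ANGPTL4 and BNIP3L are named outside the rule for named genes, after their values were seen, and the list's median log2 fold change was 0.04, beside -0.03 over all genes. PFKFB4, an enzyme that tunes glycolytic flux, had a log2 fold change of 3.38, and EGLN1, an oxygen-sensing hydroxylase that marks hypoxia-inducible factors for removal, one of 0.93. HIF1AN, which inhibits those factors, fell by 0.88 and P4HA1, a collagen hydroxylase subunit, by 0.97. The call of MXI1 was lost without any 1 of 6 libraries, with adjusted p-values up to 0.134, and that of BNIP3L without native bladder 4 (adjusted p = 0.0911) or ileum graft 2 (adjusted p = 0.0600).

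**Figure D3:**
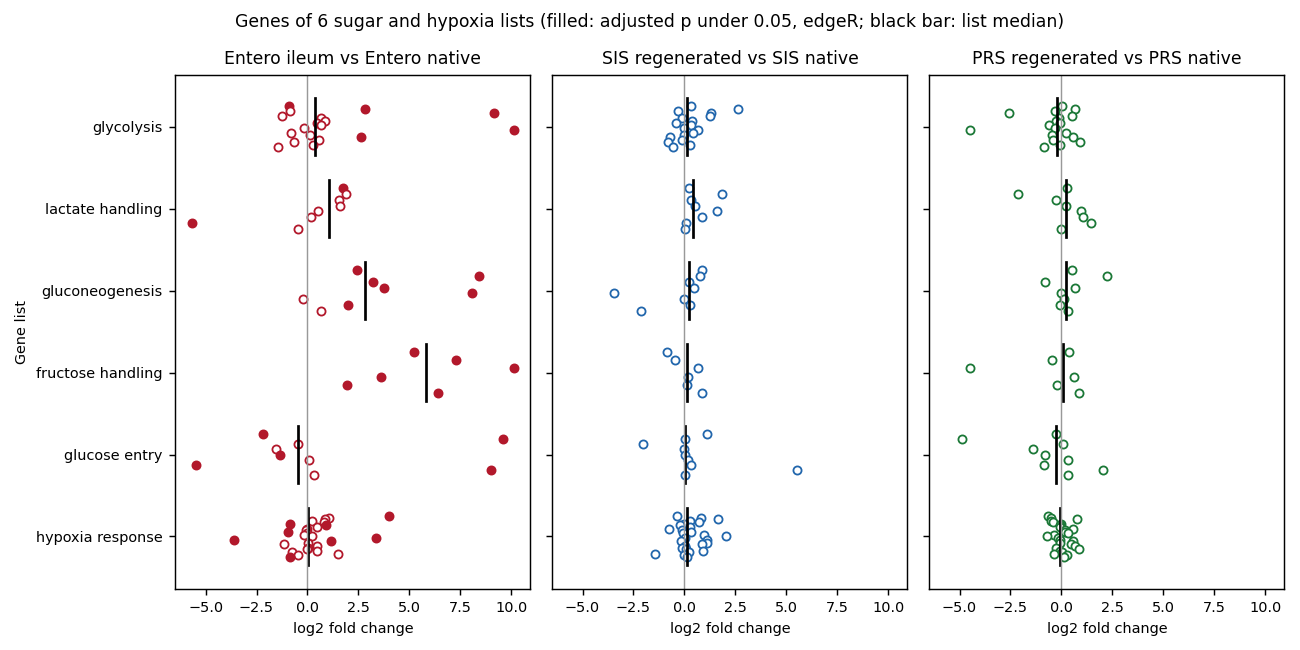
Log2 fold change of graft over native bladder for each tested gene of 6 lists in the Entero, SIS and PRS arms, filled where the adjusted p is under 0.05, with the list median as a black bar. All 6 fructose genes and 6 of 8 genes of glucose synthesis are filled on the right in the Entero arm, the hypoxia list is spread around 0, and no point is filled in the SIS or PRS arm.

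In the SIS arm the regenerated tissue carried the 9 genes at levels that the test did not separate from native bladder. None of the 9 passed, as none of the 17177 genes did (0%) with edgeR's quasi-likelihood test. At an unadjusted p under 0.05 there were 835 genes, 2 of the 9 among them. With DESeq2 69 genes were called (0.343%), none of the 9. The median log2 fold change of the 9 was 0.22, beside 0.03 over all genes, and none had groups that did not overlap, beside 1.15% of all genes.

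The 2 were HK2 and SLC2A1. HK2 had 4.61, 102, 4.38, 15.2 and 8.57 CPM in the SIS regenerated tissues, against 4.93, 3.89, 3.12, 2.21 and 7.34 CPM in native bladders 1 to 5. Regenerated tissue 2 stood alone above the rest. HK2 had a difference of 2.64 on the log2 scale (SE 0.82, unadjusted p = 0.00337, adjusted p = 0.632), and of 0.93 without that library. SLC2A1 had 53.9, 88.3, 106, 119 and 211 CPM in the regenerated tissues, against 101, 60.7, 65.2, 17.0 and 27.8 CPM in the native bladders. It was higher in the regenerated tissue in 4 of 5 animals, with a log2 difference of 1.09 (SE 0.48, unadjusted p = 0.0316, adjusted p = 0.972). The widest ratios, 6.98 and 7.58, came from animals 4 and 5, where urothelial markers summed to 5310 and 9830 CPM in regenerated tissue, against 367 and 2250 CPM in native bladder. FBP1 had its widest ratios in the same animals, 14.0 and 6.82. The part of the share of urothelium in these ratios was not tested. In the SIS arm the codes of animals 4 and 5 carry the letter M and those of the other animals the letter F. The letter thus goes with these ratios too, and its part was not tested.

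For KHK the SIS regenerated tissues averaged 3.55 ± 1.44 CPM and the native bladders 4.93 ± 2.41 CPM (SD, n = 5 each), with a 95% interval of the log2 fold change from -1.60 to 0.67. CA9 averaged 1.99 ± 1.05 CPM in SIS regenerated and 2.59 ± 1.13 CPM in SIS native bladder (SD, n = 5 each), with an interval from -1.78 to 1.03. Neither interval reaches the size seen in the ileum grafts. PCK1 was low but detected, with 35 reads over the 5 regenerated tissues and 17 over the 5 native bladders. It had no read in 1 of the regenerated tissues and 3 of the native bladders. ALDOA and PGK1 had the narrowest intervals, from -0.48 to 0.48 and from -0.46 to 0.41.

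SIS regenerated tissue 2 stood apart in several genes of the same lists. HIF1A and SLC16A1 are named here outside the rule for named genes, after their values were seen. LDHA had 186, 686, 151, 199 and 200 CPM in the SIS regenerated tissues, against 188, 143, 228, 382 and 279 CPM in the native bladders, so library 2 was again the highest of 10. The log2 fold change of LDHA was 0.22, and -0.41 without that library. VEGFA, the angiogenic factor, had 789 CPM there, against 59.0 to 156 CPM in the native bladders. In HIF1A, a subunit of the hypoxia-inducible factor, library 2 had 695 CPM, against 130 to 169 CPM in the native bladders. PFKFB3, a driver of glycolytic flux, had 159 CPM in it and SLC16A1, a lactate transporter, 169 CPM. The library was not high in every gene of the group: CA9 was at 1.40 CPM, FBP1 at 6.31 CPM and ALDOA at 375 CPM, all within the range of the other SIS libraries. PGK1, at 291 CPM, was the highest of the 10, and 1.51 times the value of its own native bladder. Among the 75 list genes tested, library 2 was the highest of the 10 SIS libraries in 22 (29.3%), beside 23.0% of all genes tested. Its urothelial markers summed to 325 CPM, against 5300 to 13800 CPM in the other 4 regenerated tissues. Its fibroblast markers summed to 35600 CPM, against 6830 to 14900 CPM in the other 4, and its smooth muscle markers to 36300 CPM, against 6170 to 23500 CPM. The part of these cell types in the levels of library 2 was not tested.

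**Figure D4:**
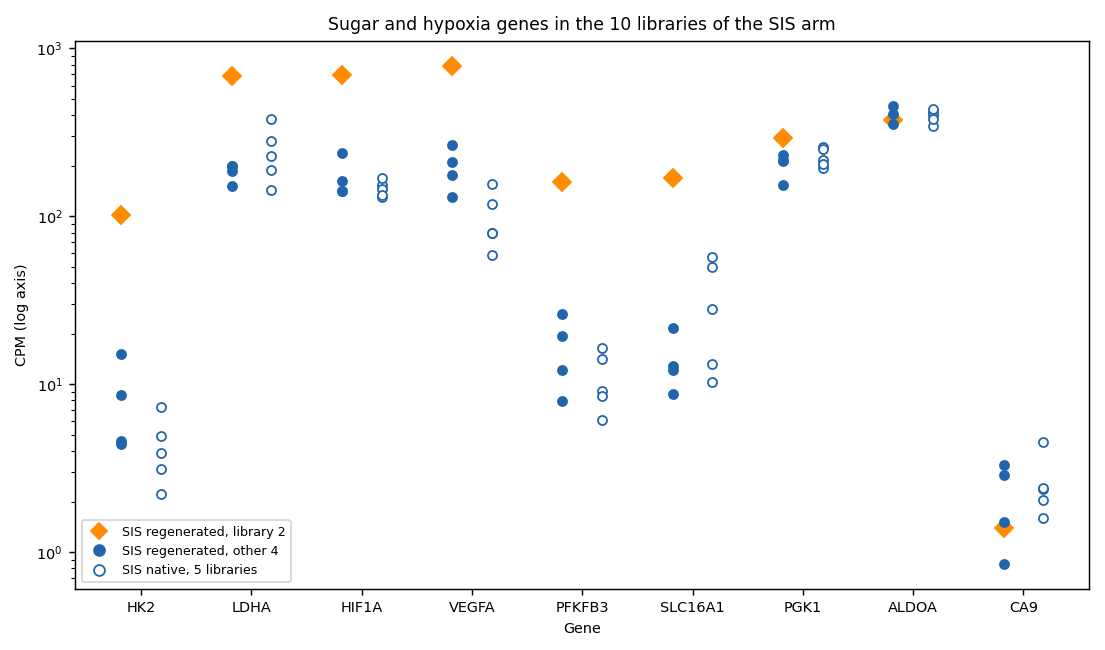
CPM (log axis) of 9 genes in the 5 SIS regenerated tissues (left of each pair, library 2 as an orange diamond) and the 5 SIS native bladders (right, open). Library 2 lies above all others in HK2 (102 CPM), LDHA (686 CPM), HIF1A (695 CPM), VEGFA (789 CPM), PFKFB3 (159 CPM) and SLC16A1 (169 CPM), and within the others in ALDOA and CA9. HIF1A and SLC16A1 were chosen after their values were seen.

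No gene of the 6 lists passed in the SIS arm. The smallest p of all belonged to VEGFA, with a log2 fold change of 1.67 (unadjusted p = 0.000677, adjusted p = 0.426) that was 0.98 without regenerated tissue 2. Among the list genes DESeq2 called VEGFA and no other (adjusted p = 0.0362). PFKFB3 had a log2 fold change of 2.04, and 0.59 without regenerated tissue 2. SLC16A3, a transporter that exports lactate, was at 1.59 and at 1.63 without that library (unadjusted p = 0.00512). The other genes with the smallest p of their lists were SLC5A1 (5.53, unadjusted p = 0.0171), SLC2A4 (-2.03), PPARGC1A (-2.11), SLC2A5 (-0.87) and HK1 (0.34). SLC5A1 had 36.7 CPM in regenerated tissue 4 and under 1 CPM in the other 9 SIS libraries. The animal of regenerated tissue 4 is coded M, and the other libraries of M-coded animals were among those under 1 CPM. The part of the letter was not tested.

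PRS regenerated tissue, too, did not differ from its native bladder in any of the 9 genes by the test, and again none of all genes passed (0%). At an unadjusted p under 0.05 there were 622 genes, none of the 9 among them. With DESeq2 30 genes were called (0.143%), none of the 9. The median log2 fold change of the 9 was -0.28, beside 0.02 over all genes. PGK1 had 178, 172, 123 and 167 CPM in the PRS regenerated tissues, against 217, 191, 255 and 221 CPM in native bladders 1 to 4. It was the 1 gene of the 9 whose groups did not overlap, beside 1.20% of all genes, and was lower in the graft in 4 of 4 animals. Its difference was -0.47 on the log2 scale, with a 95% interval from -0.95 to 0.02 (unadjusted p = 0.0600, adjusted p = 1).

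HK2 had 12.3, 4.51, 25.7 and 48.0 CPM in the PRS regenerated tissues, against 13.9, 19.3, 2.12 and 22.4 CPM in the native bladders. It was higher in the graft in animals 3 and 4 and lower in animals 1 and 2, with a ratio of graft to native of 12.1 in animal 3. The codes of PRS animals 1 and 2 carry the letter F and those of animals 3 and 4 the letter M. The letter thus goes with the direction of HK2, and its part was not tested. FBP1 had 37.7, 1.08, 82.6 and 70.8 CPM in the regenerated tissues, against 26.6, 6.81, 50.0 and 38.1 CPM in the native bladders, higher in 3 of 4. Regenerated tissue 2, the library with the lowest FBP1 of all 28, also had the lowest SLC2A1 of its group (30.9 CPM). Its urothelial markers summed to 698 CPM, against 7820 to 8010 CPM in the other 3, and its smooth muscle markers to 70200 CPM, against 2760 to 18200 CPM.

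SLC2A1 averaged 78.0 ± 37.8 CPM in PRS regenerated tissue and 94.9 ± 33.0 CPM in native bladder (SD, n = 4 each), LDHA 220 ± 68.5 CPM in the grafts and 184 ± 79.6 CPM in native bladder, and ALDOA 333 ± 57.1 CPM in the grafts and 420 ± 123 CPM in native bladder. KHK averaged 3.50 ± 1.13 CPM in PRS regenerated and 4.78 ± 4.16 CPM in PRS native bladder (SD, n = 4 each), and CA9 1.48 ± 0.334 CPM in PRS regenerated and 2.37 ± 2.05 CPM in PRS native bladder. All groups overlapped in these 5 genes. PCK1 came to 58 reads over the 4 regenerated tissues, 39 of them in library 2, and to 13 reads over the native bladders, all in 1 library. Its log2 fold change of 2.22 moved between 0.94 and 6.93 as single libraries were left out and rests on those few reads.

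No list gene passed in the PRS arm either, by edgeR or by DESeq2. The smallest p (unadjusted p = 0.0493) belonged to SLC2A2, with 0 reads over the 4 regenerated tissues and 18 over the 4 native bladders. SLC2A8 was at -0.83, SLC16A3 at 0.95, INSIG2 at 0.69 and PCK2 at -0.83 on the log2 scale. SLC5A1, chosen for mention after its values were seen, had 3.85, 0, 91.4 and 238 CPM in the PRS regenerated tissues, against 0, 0, 0 and 80.2 CPM in the native bladders (unadjusted p = 0.305). In those regenerated tissues KHK was between 2.25 and 4.95 CPM. The SLC5A1 values of 80.2, 91.4 and 238 CPM came from animals coded M, and the F-coded animals had 0 to 3.85 CPM. The other native bladder of an M-coded animal had 0 CPM, and the part of the letter was not tested.

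The changes in the arms were compared with each other directly. Between the SIS and the Entero arm the graft-to-native change differed in 4 of the 9 genes, beside 6.56% of all genes. It was greater in the SIS arm for 1 of them, beside 3.59% of all genes, and smaller for 3, beside 2.97%. The difference of the log2 fold changes was 3.25 for SLC2A1 (SE 0.69, adjusted p = 0.00380), -7.73 for KHK (SE 0.86, adjusted p = 4.14e-06), -4.38 for CA9 (SE 1.00, adjusted p = 0.00728) and -7.65 for PCK1 (SE 1.83, adjusted p = 0.0101). PCK1 lost its call once the animal entered as a block (adjusted p = 0.0607) or without SIS native bladder 4 (-6.45, adjusted p = 0.146), and it was -8.74 without Entero native bladder 4. For LDHA the difference was -1.53 (adjusted p = 0.112), and without SIS regenerated tissue 2 it was -2.16 and called (adjusted p = 0.00615). FBP1 differed by -3.30 (adjusted p = 0.102), and it passed with DESeq2 (adjusted p = 0.0302), beside 10.5% of all genes.

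Between the PRS and the Entero arm 2 of the 9 differed, beside 3.47% of all genes. Both changes were smaller in the PRS arm, beside 1.91% of all genes, while 1.56% of all genes had a greater change there. The difference of the log2 fold changes was -7.71 for KHK (SE 0.92, adjusted p = 1.99e-05) and -4.68 for CA9 (SE 1.07, adjusted p = 0.0126). KHK stayed called throughout, at -6.93 without PRS native bladder 2 and -7.00 with the animal as a block. CA9 lost its call once the animal entered as a block (adjusted p = 0.162) or when the fit held the compared libraries alone (adjusted p = 0.0527). PCK1 missed the threshold with a difference of -6.19 (adjusted p = 0.0753), and it passed without Entero native bladder 4 (adjusted p = 0.0330), without PRS regenerated tissue 2 (adjusted p = 0.0430) and with DESeq2 (adjusted p = 0.0431), beside 6.71% of all genes. With single libraries left out, this difference of PCK1 ran from -7.46 to -1.48, with adjusted p-values up to 0.951. The change of the PRS arm minus that of the SIS arm gave no call among the 9 or among all genes with edgeR (683 genes, none of the 9, at an unadjusted p under 0.05, and 20 genes with DESeq2, 0.0899%). Of the fructose genes, 5 of 6 had a lower change in the SIS than in the Entero arm, beside 2.97% of all genes. In the PRS against the Entero arm it was 5 of 6 too, beside 1.91% of all genes. With the animal as a block these counts were 5 in the SIS and 1 in the PRS comparison. Over all genes and both directions the block called 675 and 240, in place of 1127 and 596. With single libraries left out the fructose counts were 4 to 6 and 3 to 6.

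Each regenerated tissue was also set directly against the ileum grafts. These comparisons use the same 5 ileum libraries as the Entero arm's own, so they are given side by side and not as separate support. SIS regenerated tissue was lower in KHK (log2 fold change -7.41), PCK1 (-10.67), CA9 (-3.95), FBP1 (-3.71) and LDHA (-1.27) and higher in SLC2A1 (2.75), which makes 6 of 9, beside 21.1% of all genes (10.9% higher and 10.2% lower). In 5 of the 9 the groups did not overlap, beside 12.6% of all genes. PRS regenerated tissue was lower in KHK (-7.43), PCK1 (-9.37), CA9 (-4.38), FBP1 (-3.27) and LDHA (-1.64) and higher in SLC2A1 (2.18), which makes 6 of 9, beside 14.0% of all genes (7.21% higher and 6.75% lower). In 4 of the 9 the groups did not overlap, beside 11.2% of all genes.

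The LDHA call in SIS regenerated tissue (adjusted p = 0.0264) was lost in the fit of the compared libraries alone (adjusted p = 0.106), without ileum graft 5 (adjusted p = 0.0927) and without any 1 of SIS regenerated tissues 1, 3, 4 and 5 (adjusted p up to 0.0732). Without SIS regenerated tissue 2 it was -1.90 (adjusted p = 0.000632), and HK2 was then called at -2.83 (adjusted p = 0.00723), against -1.12 with that library. In PRS regenerated tissue the LDHA call was lost without library 1 (adjusted p = 0.0548). FBP1 there was not called in the fit of the compared libraries alone (adjusted p = 0.0911), without ileum graft 5 (0.0627) or without PRS regenerated tissue 1 (0.0753) or 2 (0.0529). PGK1, at -0.57 (adjusted p = 0.0957), was called by DESeq2 (adjusted p = 0.0256), which called 19.5% of all genes, and without ileum graft 1 (adjusted p = 0.0255). KHK was -6.79 and -6.82 without ileum graft 5 in the SIS and PRS comparisons, and PCK1 was -10.62 without PRS regenerated tissue 2.

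In the wider lists all 6 tested fructose genes were lower in SIS regenerated tissue than in the ileum grafts, and 6 of 6 in PRS regenerated tissue, beside 10.2% and 6.75% of all genes for SIS and PRS. Of the 8 genes of glucose synthesis 6 were lower in SIS and 5 in PRS regenerated tissue, and with single libraries left out these counts were 4 to 6 and 3 to 5. The PRS count was 3 without ileum graft 5, where FBP1 lost its call and G6PC fell under the filter on low counts. HK1 was higher in both, with log2 fold changes of 1.25 in SIS and 0.98 in PRS regenerated tissue. Of 27 hypoxia genes 6 were higher in SIS regenerated tissue, beside 10.9% of all genes, and 3 lower, beside 10.2%. In PRS regenerated tissue 5 were higher, beside 7.21%, and 3 lower, beside 6.75%. The 5 that were higher in PRS became 2 without ileum graft 3, and 3 without ileum graft 4, ileum graft 5 or PRS regenerated tissue 2. EPAS1, the hypoxia-inducible factor subunit HIF-2 alpha, was higher by 1.38 and 1.07, P4HA1 by 1.17 and 1.06, and PFKFB4 was lower by 3.47 and 3.28 on the log2 scale, each pair giving SIS and then PRS. In SIS the calls of ENO2, GPI, LOX, PC and SLC2A8 were each lost when at least 1 single library was left out, with LOX at 2.40 and, without SIS regenerated tissue 2, at 1.15 (adjusted p = 0.199). SLC2A8 was lost without any 1 of 7 libraries and PC without any 1 of 4. In PRS the calls of EPAS1, HK1, BNIP3L, ANGPTL4, EGLN1, PFKL and MLXIPL were each lost when at least 1 single library was left out, with EPAS1 at 0.81 (adjusted p = 0.131) without PRS regenerated tissue 2.

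PRS and SIS regenerated tissue were not separated in any of the 9 genes, nor in any of all genes with edgeR (0%), and no groups of the 9 stood apart (1.43% of all genes did). There were 763 genes, PGK1 among them, at an unadjusted p under 0.05, and 18 genes by DESeq2 (0.0809%), none of the 9. PGK1 was at -0.47 on the log2 scale with a 95% interval from -0.93 to -0.01 (unadjusted p = 0.0475, adjusted p = 1). HK2 was at -0.25 over all libraries and at 1.47 without SIS regenerated tissue 2. Of the wider lists PFKFB3 was at -2.02, SLC2A8 at -1.10 and NDRG1 at -1.01, none of them past the threshold.

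The 3 sets of native bladder were not separated by the test in any of the 9 genes either. With edgeR 0% of all genes were called in each of the 3 comparisons. With DESeq2 68, 35 and 115 genes were called (0.311%, 0.164% and 0.572%), none of the 9. None of the 9 had groups apart, beside 1.02%, 0.763% and 2.35% of all genes in the same order. At an unadjusted p under 0.05 there were 711 genes for SIS native over Entero native, 369 for PRS native over Entero native and 1205 for PRS native over SIS native. Of the 9, 1 was among them each time: PCK1 in the first pair of these (log2 fold change -3.03) and in the next (-3.18), and HK2 in the last (1.75). The Entero native bladders also carried more reads of the absorptive gut markers, 17.4 to 44.7 CPM in sum, against 2.13 to 4.31 CPM in SIS native and 0.509 to 15.1 CPM in PRS native. The part of these reads in the PCK1 values was not tested.

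Across the 14 native bladders the levels of SLC2A1, LDHA and FBP1 ran with or against markers of the urothelium or of smooth muscle. These relations were chosen after the data were seen, as 18 relations of the 9 genes with the summed urothelial and smooth muscle markers on the log2(CPM + 1) scale, each with 100000 permutations. SLC2A1 was high where urothelial markers were high (Pearson's r = 0.86, adjusted permutation p = 0.00126; Spearman's rho = 0.77, adjusted permutation p = 0.0174), and r was 0.72 without the 2 libraries farthest from the median. LDHA ran against the urothelial markers (r = -0.79, adjusted permutation p = 0.00324; rho = -0.78, adjusted permutation p = 0.0174), with r = -0.64 without the 2 farthest libraries. No arm has 6 native libraries, so within-arm values rest on deviations from the arm means, which gave r = 0.89 for SLC2A1 and -0.79 for LDHA. With the smooth muscle markers neither gene passed. There r was -0.56 for SLC2A1 (adjusted permutation p = 0.0898) and 0.19 for LDHA (adjusted permutation p = 0.705).

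FBP1 ran against the smooth muscle markers (r = -0.79, adjusted permutation p = 0.00324; rho = -0.70, adjusted permutation p = 0.0303), with r = -0.81 without the 2 farthest libraries and -0.78 on deviations from the arm means. Its relation with the urothelial markers (r = 0.67, adjusted permutation p = 0.0329; rho = 0.56, adjusted permutation p = 0.138) fell to r = 0.31 without the 2 farthest libraries and rests on them. ALDOA with smooth muscle markers had rho = 0.73 (adjusted permutation p = 0.0259) and r = 0.57 (adjusted permutation p = 0.0898), so the call depends on the measure. PSCA made up 61.6% of the mean urothelial sum in Entero native bladder, 47.3% in SIS native and 54.3% in PRS native. With the mean of the log2 values of the 10 markers in place of their sum, r was 0.84 for SLC2A1, -0.85 for LDHA and 0.75 for FBP1. SIS native bladder 4, with the lowest urothelial sum of the 14 (367 CPM), had the lowest SLC2A1 (17.0 CPM) and the highest LDHA (382 CPM).

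**Figure D5:**
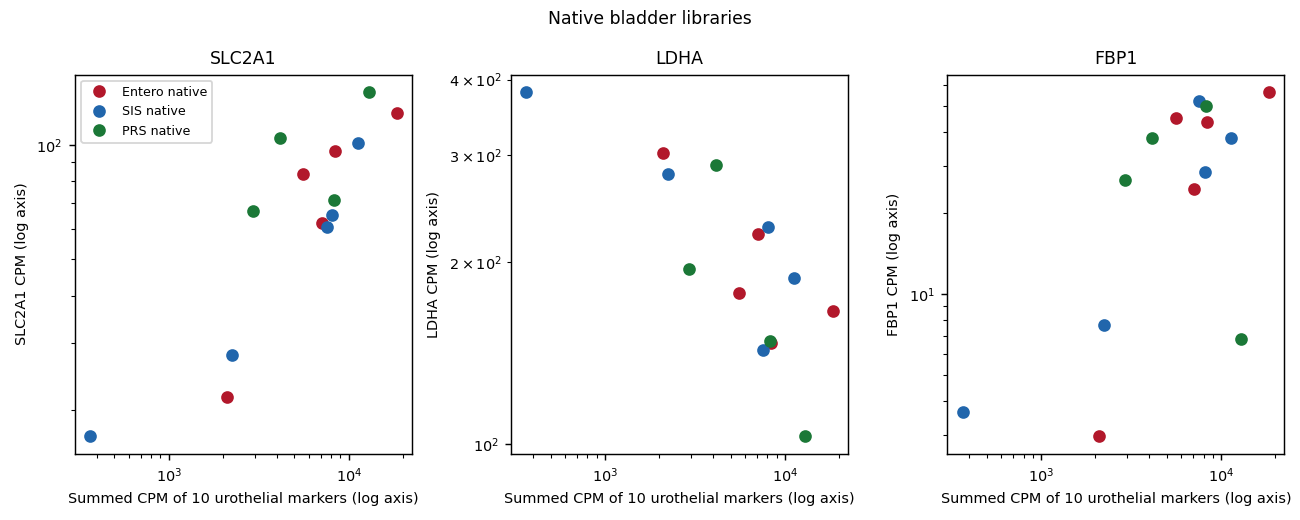
CPM of SLC2A1, LDHA and FBP1 (vertical, log axis) against the summed CPM of 10 urothelial markers (horizontal, log axis) in the 14 native bladder libraries, coloured by arm. SLC2A1 climbs with the markers (r = 0.86), LDHA declines (r = -0.79), and FBP1 has a low value in PRS native bladder 2 (6.81 CPM) despite a urothelial sum of 12900 CPM.

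Genes whose log2(CPM + 1) values ran most like those of each member over the 28 libraries are given as a description, since the libraries share animals and groups. For KHK they were PLA2G12B (r = 0.980), MYO1A, a brush border myosin (r = 0.980), and TMIGD1 (r = 0.977), and for PCK1 they were CDHR2, a brush border cadherin (r = 0.990), GUCA2B, the gut hormone uroguanylin (r = 0.987), and CYP4F2 (r = 0.983). CA9 was closest to KHK itself (r = 0.946), MYO1A (r = 0.937) and HKDC1 (r = 0.933). After the group means were taken out the values of CA9 and KHK gave r = 0.550 and those of PCK1 and CDHR2 r = 0.878. FBP1 kept close to STAP2 with and without the group means (r = 0.954 and 0.967), as it did to SLC9A3R1, a scaffold protein of apical membranes (r = 0.957 and 0.918).

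SLC2A1 ran most like MAST4 (r = 0.920), LRRC8E (r = 0.920) and PTAFR (r = 0.910), and HK2 like SURF4 (r = 0.832), XPO6 (r = 0.828) and C2CD4B (r = 0.825). LDHA was closest to GSKIP (r = 0.897), MPP6 (r = 0.893) and ATP1B3, a sodium pump subunit (r = 0.888). ALDOA and PGK1 had no likeness above 0.8 over the 28 libraries, their closest genes being PPP2R1A (r = 0.785) and PSMC2 (r = 0.796). After the group means were taken out r was 0.809 for ALDOA with PPP2R1A and 0.829 for PGK1 with PSMC2. Among the 9 themselves KHK and PCK1 ran together most (r = 0.97, and 0.62 after the group means were taken out), and ALDOA and PGK1 hardly did (r = 0.16 and 0.04).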

How the data were processed

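The deposited table holds raw counts of reads per gene for 28 libraries, with symbols and gene lengths. The submitters' processing notes name featureCounts 1.5.0-p3, HISAT2 2.0.5 and StringTie 1.3.3b. Libraries were directional (dUTP) and paired-end, per the labels' protocols. Neither genome build nor annotation nor the strand option of the counter is stated. No coordinates or sequences are therefore printed, and reads of antisense partners may be counted. Of 27533 genes, 6280 have no symbol.

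Counts were filtered with filterByExpr (minimum count 10), scaled by TMM and fitted with edgeR 4.0.16 (R 4.3.3), a quasi-likelihood model with 6 group terms over all 28 libraries and 12 contrasts, with Benjamini-Hochberg adjustment over 17177 genes. SEs were taken back from the F value, and 95% intervals rest on them. CPM use TMM-scaled library sizes, and TPM the deposited gene length without TMM scaling. Scripts were tested on simulated data. Alternatives were DESeq2 1.42.0, RLE scaling, no filter, the animal as a block, the compared libraries alone, no mitochondrial genes, and each library left out.

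The animal codes in the labels tie each graft to its native bladder, so the block is a true pairing. The deviations of an animal's tissues from their group means correlated between -0.195 and 0.612. The p-values of the main fit weigh group differences against the spread between libraries within groups. That fit holds group terms alone and does not use the pairing. The 9 genes, the 6 pathway lists and the marker lists were chosen with earlier results of these data known. All 9 genes are named in every comparison. From each list the text names non-members with the smallest p, up to 4 among those that passed and 2 where none did. A gene that this rule names is not reported here.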

Additional observations from a re-analysis of the deposited data

Results flagged for a closer look

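In 54 sets of 4 or 5 libraries of a gene and group, 7 held a library far from the others. The rule marks about 1 in 20 sets of independent, normally distributed values. Sets of PCK1 hold libraries with no read, and HK2 and LDHA were marked in the same library, so the 7 are not read against that rate. SIS regenerated tissue 2 stood apart in HK2 (102 CPM) and in LDHA (686 CPM). Ileum graft 3 was high in ALDOA at 606 CPM. SIS native bladder 5 was high in CA9 at 4.52 CPM. PCK1 was high in PRS regenerated tissue 2 (1.56 CPM), Entero native bladder 4 (3.38 CPM) and PRS native bladder 4 (0.507 CPM). The adipocyte markers summed to 224 CPM in PRS regenerated tissue 2, the third of its group of 4. They had the highest sum of their group in both of those native bladders, 1230 and 387 CPM. The absorptive gut markers also had the highest sum of their group in both native bladders, 44.7 and 15.1 CPM. In PRS regenerated tissue 2 the gut markers had the lowest sum of the group, 0.719 CPM. The part of either marker set was not tested.

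The change from native bladder to graft differed between arms by a test of the difference itself. Between the SIS and the Entero arm the log2 difference was 3.25 for SLC2A1, -7.73 for KHK, -7.65 for PCK1 and -4.38 for CA9. Between the PRS and the Entero arm it was -7.71 for KHK and -4.68 for CA9.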

How the results depend on the processing

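The 108 results for single genes were recomputed under the alternatives, which gave 1849 values. Of these 18 lost a call, 8 gained one, and 99 differed in sign with neither value called. The other values kept their direction and their side of the threshold. Of the 99, 93 had moved by no more than the SE of the reported value, and 6, each with 1 library left out, by more. For LDHA in SIS regenerated over native the range was -0.41 (without SIS regenerated tissue 2) to 0.44. In PRS over SIS regenerated, leaving out that same library gave the high end of -0.90 to 1.47 for HK2 and of -0.52 to 0.26 for LDHA. Without PRS native bladder 2, KHK reached the high end of -0.78 to 0.33 in PRS regenerated over native and the low end of -0.49 to 0.61 in PRS over Entero native. ALDOA in PRS regenerated over ileum was between -0.24 and 0.11, with 0.11 without ileum graft 3. The number of the 9 genes called in the PRS change minus the Entero change was 1, in place of 2, with the animal as a replicate block and with the compared libraries alone. With the block the members called were 7 in the Entero arm, 0 in the SIS and PRS arms and 3, in place of 4, in the SIS change minus the Entero change. With single libraries left out, the members called were 6 to 7 for ileum over native, 5 to 7 for SIS regenerated over ileum, 4 to 7 for PRS regenerated over ileum, 3 to 5 for the SIS minus the Entero change and 2 to 3 for the PRS minus the Entero change, and 0 elsewhere. Over all genes, DESeq2 called 1767 for the SIS minus the Entero change, in place of 1127, and 1182 for the PRS minus the Entero change, in place of 596, where the block gave 675 and 240. The compared libraries alone gave 2326 calls for SIS regenerated over ileum (3627 in the joint fit), 1040 for PRS regenerated over ileum (2399) and 368 for the PRS minus the Entero change, which had 390 without PRS regenerated tissue 1. Leaving out 1 library gave 3 calls in place of 0 in PRS regenerated over native (PRS native bladder 4). The causes were not tested. The 4 or 5 animals of a group limit what could be called, and depth limits PCK1 outside the ileum grafts: no read at all over the 5 SIS regenerated tissues would still allow 0.0216 CPM (3 counts).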
